A study of Mus musculus with 75 samples.

Results

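The nucleus accumbens, the ventral part of the striatum, is built mainly from medium spiny neurons, inhibitory projection cells that fall into a D1 class and a D2 class by the dopamine receptor they make. Nuclear RNA of both classes was compared here in mice that never received cocaine. Of the 75 libraries of the study, 19 were of this kind, 10 from D1 nuclei (group D1_SS) and 9 from D2 nuclei (group D2_SS), chosen by their group names alone. All 19 came from male mice carrying LSL-eGFP::L10a, a green fluorescent fusion of ribosomal protein L10a that Cre switches on, crossed with D1-Cre in one group and D2-Cre in the other. Both groups had the same history: saline injections on 10 days, 30 days of withdrawal in the home cage, a saline challenge, and death 1 h later. Age was not given in the sources used here. Nuclei were sorted by fluorescence, so the Cre driver, the Drd1 or the Drd2 gene, defined each group. In lines of this type Cre sits on a large piece of genomic DNA taken from the receptor's own locus, and gene counts do not tell reads from such a transgene apart from reads of the mouse's own gene. Nothing in the labels says which libraries came from separate animals, so p-values measure the spread between these libraries.

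As background, the D1 receptor couples to the stimulatory G protein Golf and raises cyclic AMP, while the D2 receptor couples to inhibitory G proteins and lowers it. D1 neurons make the peptides dynorphin and substance P from Pdyn and Tac1 and carry the muscarinic M4 receptor. D2 neurons make enkephalin from Penk and carry the adenosine receptor of Adora2a, which opposes D2 signalling on cyclic AMP. Dynorphin acts on kappa, and enkephalin on delta and mu, opioid receptors.

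Total counts ran from 8736018 to 29845486 in D1_SS and from 5331227 to 17808952 in D2_SS. A part of these counts lay on genes that no striatal cell uses: taking the density of counts on 1464 olfactory and vomeronasal receptor genes as a floor under every gene, this background made up 45.9% ± 11.8 of the counts in D1_SS (SD, n = 10) and 43.8% ± 17.1 in D2_SS (SD, n = 9; exact permutation test, two-sided, p = 0.777). D2_SS 9, at 5.32%, had the least. In another measure 5 libraries stood apart. Counts on the mitochondrial genome made up 0.0189% to 0.0290% of the total in D1_SS 8, 9 and 10 and 0.0166% and 0.0256% in D2_SS 8 and 9, against 0.0684% to 1.77% in the other 14. Levels are given as CPM, counts per 1000000 of a library's total; they cannot tell fewer cells of a type from less RNA per cell.

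The sequences just upstream of 5 receptor and peptide genes named throughout are shown first. They are the RefSeq promoter windows (GRCm38.p6), up to 250 bases and ending before the annotated gene, each 5′ to 3′ on the gene's strand, with capitals for the GC box GGGCGG on either strand. The first pair belongs to genes on the D1 side and the rest to genes on the D2 side.
Drd1 (chr13:54055706-54055908, minus strand): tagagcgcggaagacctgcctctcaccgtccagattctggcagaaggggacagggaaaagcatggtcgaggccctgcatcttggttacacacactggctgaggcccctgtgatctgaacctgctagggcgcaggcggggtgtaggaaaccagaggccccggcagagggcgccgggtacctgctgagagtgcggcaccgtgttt
Pdyn (chr2:129699939-129700188, minus strand): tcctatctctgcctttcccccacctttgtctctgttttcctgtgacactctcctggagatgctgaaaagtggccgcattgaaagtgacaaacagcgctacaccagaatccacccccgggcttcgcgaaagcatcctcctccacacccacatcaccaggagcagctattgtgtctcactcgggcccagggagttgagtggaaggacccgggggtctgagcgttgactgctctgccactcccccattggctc
Drd2 (chr9:49340153-49340402, plus strand): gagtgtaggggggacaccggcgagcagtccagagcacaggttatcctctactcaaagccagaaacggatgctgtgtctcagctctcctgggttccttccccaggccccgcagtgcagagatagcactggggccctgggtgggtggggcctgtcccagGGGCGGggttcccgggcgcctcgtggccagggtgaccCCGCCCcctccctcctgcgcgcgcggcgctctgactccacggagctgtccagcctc
P2ry1 (chr3:61002535-61002784, plus strand): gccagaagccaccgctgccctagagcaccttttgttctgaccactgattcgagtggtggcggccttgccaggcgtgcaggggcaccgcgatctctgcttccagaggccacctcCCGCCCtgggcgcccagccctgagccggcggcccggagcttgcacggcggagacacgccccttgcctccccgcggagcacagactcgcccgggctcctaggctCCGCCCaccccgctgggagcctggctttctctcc
Oprd1 (chr4:132144487-132144736, minus strand): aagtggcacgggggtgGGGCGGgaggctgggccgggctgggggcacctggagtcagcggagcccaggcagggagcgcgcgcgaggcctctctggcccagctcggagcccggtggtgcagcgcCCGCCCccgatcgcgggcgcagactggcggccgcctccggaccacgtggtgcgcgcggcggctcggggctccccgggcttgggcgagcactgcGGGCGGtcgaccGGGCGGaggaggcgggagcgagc
The GC box was found 2 times at Drd2, 2 times at P2ry1 and 4 times at Oprd1, and 0 times at Drd1 and Pdyn; 32.7% of 32851 RefSeq promoter windows of 250 bases hold it. The Drd1 stretch has only 203 bases. GC content was 62.6% at Drd1, 57.2% at Pdyn, 68.8% at Drd2, 70.8% at P2ry1 and 80.0% at Oprd1, against a median of 52.4% over all windows. The cyclic AMP response core TGACG, searched on both strands, was in none of these 5 stretches and in 17.8% of all windows.

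Between the classes, few genes passed the threshold in the 19 libraries, and most of those are known marks of one class or lie beside a receptor gene. Of 34487 genes tested with edgeR, 21 (0.0609%) passed an adjusted p of 0.05, with 8 (0.0232%) higher and 13 (0.0377%) lower in D1 nuclei. At an unadjusted p under 0.05 there were 692 genes (2.01%), 222 higher (0.644%) and 470 lower (1.36%). That share is below the 1 in 20 expected if no gene differed, and genes that did not pass may still differ. In 15 of the 21 the CPM of the groups did not overlap, against 19 (0.0551%) of all genes, 10 with D1_SS above (0.0290%) and 9 with D1_SS below (0.0261%). Of the 21, 9 were Drd2 itself or genes within 250000 bases of Drd1 or Drd2, and 12 lay elsewhere.

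Drd2, which encodes the D2 receptor, had the largest fold difference of the 21 genes. Its CPM was 41.4, 53.2 and 64.2 in D1_SS (lowest, median, highest) and 265, 677 and 2177 in D2_SS. The groups did not overlap, and D2_SS 8 and 9 were the highest. The log2 change, D1 minus D2, was -4.32 (SE 0.39, adjusted p = 9.8e-07). The D1 level was 2.23 times the background expected from the gene's length at the median, and the D2 level 25.7 times.

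Drd1, which encodes the D1 receptor, did not pass in the 19 libraries. Its CPM was 17.5, 136 and 229 in D1_SS and 13.7, 36.1 and 45.8 in D2_SS. Of the 10 D1_SS libraries, 8 lay above every D2_SS library, while D1_SS 8 at 17.5 and D1_SS 9 at 22.3 lay within the D2_SS range. The log2 change was 1.86 (SE 0.41, adjusted p = 0.198, unadjusted p = 1.6e-04). In those 2 libraries, although labelled D1, Drd2 exceeded Drd1, at 58.9 and 57.6 CPM. Their Drd2 level was that of the other D1_SS libraries, and no D2_SS library held more Drd1 than Drd2. The log2 ratio of Drd1 to Drd2 was 0.881 ± 1.35 in D1_SS (SD, n = 10), with -1.74 as its lowest value, and -4.60 ± 1.32 in D2_SS (SD, n = 9), with -2.53 as its highest (exact permutation test, two-sided, p = 2.17e-05).

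**Figure D1:**
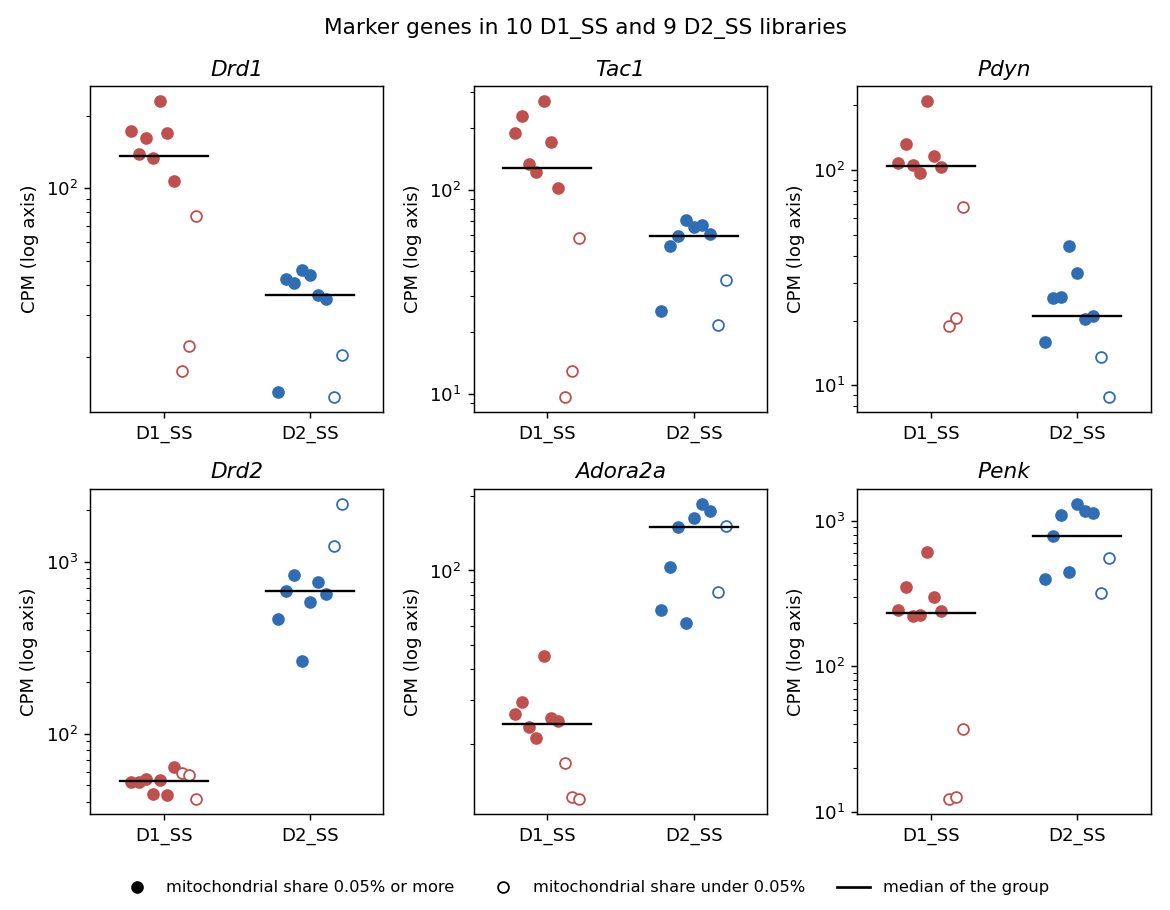
CPM on log axes of the 6 marker genes in each of the 10 D1_SS (red) and 9 D2_SS (blue) libraries, with black lines for group medians and open circles for libraries with a mitochondrial share under 0.05%. Drd2 and Adora2a do not overlap between the groups, while the open D1_SS circles lie low for Drd1, Tac1, Pdyn and Penk.

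Genes beside Drd1 rose with the D1 class. Sfxn1, which encodes a mitochondrial serine transporter and starts 16163 bases beyond Drd1 (chr13:54071869-54108342), had 71.7, 105 and 126 CPM in D1_SS and 22.2, 28.4 and 43.1 in D2_SS. All 10 D1_SS libraries were above all 9 D2_SS libraries, with a log2 change of 1.67 (SE 0.17, adjusted p = 6.3e-06). On the other side of Drd1, 4 transcripts without a known role also passed. Gm48550 (log2 change 1.64), Gm34557 (1.70), E130119H09Rik (1.66) and Gm18974 (1.62) lie 74516 to 160327 bases from the receptor gene, 2 of them on each strand. Gm34557, a long noncoding RNA, had 22.7 to 36.5 CPM in D1_SS and 2.57 to 11.7 in D2_SS, and none of the 4 overlapped between the groups. The step was sharp on the Sfxn1 side: Hrh2, the histamine H2 receptor gene 136423 bases away, had a log2 change of 0.23 (SE 0.11, adjusted p = 0.9996).

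Around Drd2 the pattern was similar and graded by distance. Ankk1, a kinase gene 7016 bases beyond Drd2 (chr9:49415194-49427021), had 5.31, 7.52 and 9.90 CPM in D1_SS and 18.2, 39.0 and 52.2 in D2_SS, which is a log2 change of -2.52 (SE 0.21). Ttc12, a gene of axonemal dynein assembly at 28785 bases, had 23.4, 29.7 and 42.6 CPM against 43.8, 104 and 149, with a log2 change of -1.78 (SE 0.11) and the smallest adjusted p of the comparison (7.5e-09). Neither gene overlapped between the groups. Gm4894, at 60032 bases on the other side, changed by -0.98 (SE 0.14, adjusted p = 8.7e-04), with overlap. Ncam1, a neural adhesion gene and the next gene tested beyond Ttc12, had a log2 change of -0.22 (SE 0.18, adjusted p = 0.9996).

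Per kilobase of gene span, the differences put these neighbours on one scale. For Drd1 the difference between group means was 20.0 CPM per kb. The 5 neighbours that passed differed by 1.17 (Gm48550) to 1.95 (Sfxn1) CPM per kb, and Hrh2 by 0.147. On the other chromosome the difference was -11.8 CPM per kb for Drd2, -2.59 for Ankk1, -1.41 for Ttc12, -0.407 for Gm4894 and -0.031 for Ncam1. With the background subtracted from the counts the log2 changes were larger, at 2.45 for Sfxn1, 3.01 for Gm48550, -3.26 for Ankk1 and -2.63 for Ttc12. The part of transcripts that run past the receptor gene, or of transgene copies, in these values was not tested.

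**Figure D2:**
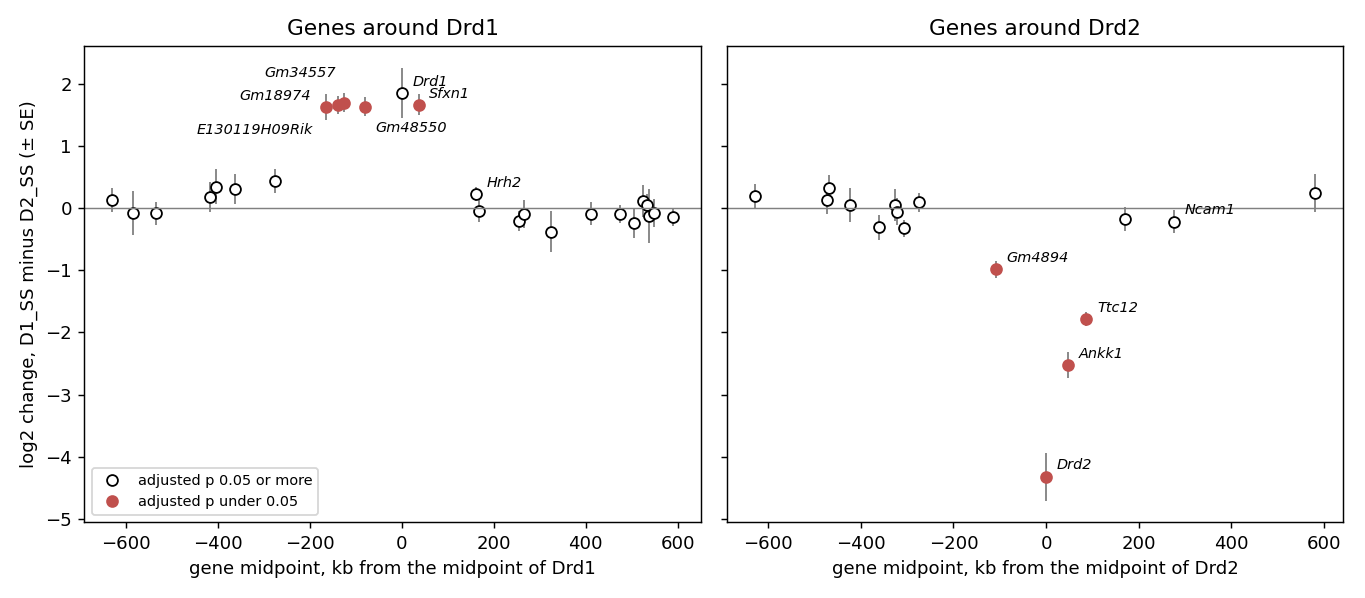
Log2 change, D1_SS minus D2_SS, with SE bars, for genes tested around Drd1 (left) and Drd2 (right), placed by the distance in kb between gene midpoints; red circles passed an adjusted p of 0.05. On the left a block from Gm18974 (1.62) to Sfxn1 (1.67) is high and Hrh2 is near 0; on the right the fall is greatest at Drd2 (-4.32) and is near 0 by Ncam1.

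Of the peptide genes Pdyn, Tac1 and Penk, only Pdyn passed in the 19 libraries, and the spread inside each group was large. Pdyn, the dynorphin precursor, had 18.9, 105 and 209 CPM in D1_SS and 8.82, 21.1 and 44.3 in D2_SS, and it passed narrowly (log2 change 2.03, SE 0.39, adjusted p = 0.048). D1_SS 8 and 9, at 18.9 and 20.5, fell in the D2_SS range, and the other 8 did not. Pdyn kept its call in 3 of 19 fits with 1 library left out. Tac1, the substance P precursor, had 9.63, 128 and 271 CPM against 21.7, 59.6 and 71.3 and did not pass (log2 change 1.28, SE 0.47, adjusted p = 0.9996). Its 2 lowest D1_SS libraries, again 8 and 9, were below every D2_SS library, and 7 were above every one.

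Penk, the enkephalin precursor, varied widely between D1_SS libraries and did not pass. It had 12.2, 231 and 612 CPM in D1_SS and 320, 786 and 1313 in D2_SS (log2 change -1.87, SE 0.55, adjusted p = 0.9996). In 8 D1_SS libraries the level was below every D2_SS library, and D1_SS 2 and 5, at 352 and 612, were inside the D2_SS range. D1_SS 8, 9 and 10 held 12.2, 12.6 and 37.3 CPM. A transcript on the other strand that shares 499 bases with the start of Penk, A830012C17Rik, did pass (log2 change -1.07, SE 0.19, adjusted p = 0.024), at 32.6 to 64.9 CPM in D1_SS and 37.3 to 137 in D2_SS, and kept its call in 9 of 19 fits with 1 library left out. Whether counting used strand was not given in the sources used here, so its reads and those of Penk are uncertain where they overlap.

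Adora2a, P2ry1 and Nt5e, which act in adenosine and purine signalling, were lower in D1 nuclei, that is, higher in D2 nuclei. Adora2a, the striatal adenosine receptor gene (chr10:75316877-75334784), had 12, 24.1 and 45.1 CPM in D1_SS and 61.3, 150 and 186 in D2_SS. No library overlapped, and the log2 change was -2.54 (SE 0.29, adjusted p = 5.3e-05). P2ry1, a receptor for ADP, had 2.92, 4.88 and 8.57 CPM against 10.6, 21.7 and 34.4, also without overlap (-2.18, SE 0.27, adjusted p = 1.3e-04). Gm37035, an antisense transcript that shares 992 bases with P2ry1, changed with it (-1.84, SE 0.26) and is uncertain for the same reason of strand. Nt5e, which encodes the surface enzyme that makes adenosine from AMP, had 28.5 to 34.3 CPM in D1_SS and 36.8 to 53.9 in D2_SS. Its groups did not overlap, but the change was small (-0.66, SE 0.13, adjusted p = 0.048) and kept its call in 3 of 19 fits with 1 library left out. Of 18 adenosine and purine receptor genes tested, 2 passed, and 11 of the 18 had a change above 0 (median 0.09, against -0.00 over all genes).

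Among opioid receptors, Oprd1 passed. It encodes the delta receptor, a target of enkephalin, and had 12.3, 20.2 and 29.1 CPM in D1_SS and 24.8, 30.2 and 32.8 in D2_SS. Only the highest D1_SS library, D1_SS 8, overlapped, and the log2 change was -0.71 (SE 0.12, adjusted p = 0.018). It kept its call in 14 of 19 fits with 1 library left out. Gm37711, an unconfirmed transcript 1362 bases past the 3′ end of Oprd1 on the same strand, was lower by more (-1.23, SE 0.17, adjusted p = 8.7e-04) and did not overlap between groups, at 2.44 to 5.10 against 6.40 to 11.3 CPM. With Pdyn, 2 of 8 opioid peptide and receptor genes passed.

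Outside these families 3 further genes passed. Ndnf, a secreted neuron-derived neurotrophic factor (chr6:65671590-65712326), had 12.6, 14.9 and 20.9 CPM in D1_SS and 23.6, 37.0 and 56.6 in D2_SS, a log2 change of -1.43 (SE 0.16, adjusted p = 4.0e-05). Its D1 level was 1.11 times the background at the median and its D2 level 2.83 times. Lingo2, a leucine-rich repeat membrane protein of neurons, was higher in D1 nuclei at 920, 1219 and 1522 CPM against 311, 662 and 805 (0.91, SE 0.15, adjusted p = 0.0061). Sntg2, a syntrophin that links membrane proteins to the dystrophin complex, had 133, 159 and 193 CPM against 45.0, 103 and 127 (0.59, SE 0.11, adjusted p = 0.024). None of the 3 overlapped between the groups. With the background subtracted from the counts their changes were larger, at -3.83 for Ndnf, 2.14 for Lingo2 and 1.54 for Sntg2. With the background share as a covariate in the 19 libraries, all 3 passed. The same covariate was used in the 14 libraries with the larger mitochondrial share. There Ndnf passed (-1.32, adjusted p = 0.0092), but Lingo2 (0.57, adjusted p = 0.26) and Sntg2 (0.44, adjusted p = 0.24) did not. Sntg2 kept its call in 10 of 19 fits with 1 library left out. The remaining gene of the 21 is an identifier with no gene name.

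Of 9 D1 marker genes, 2 passed (Sfxn1 and Pdyn) and 8 had a log2 change above 0, with a median of 1.28. The exception was Eya1, at -0.01 (SE 0.15). Slc35d3, a nucleotide sugar transporter of D1 neurons, had a log2 change of 1.56, Chrm4, the M4 receptor, 1.27 and Isl1, a LIM homeodomain factor of the direct pathway, 0.99; none of these passed. Of 8 D2 markers, 3 passed (Drd2, Adora2a and P2ry1) and 0 were above 0, with a median of -1.96. The orphan receptor gene Gpr6 was at -2.05 (SE 0.46, adjusted p = 0.242), the transcription factor gene Sp9 at -0.92 (SE 0.21, adjusted p = 0.281) and the kainate receptor subunit Grik3 at -0.73 (SE 0.21, adjusted p = 0.9996). Both lists name genes known for these classes and were chosen with earlier results of these data known.

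The broader lists below held no gene that passed in the 19 libraries, which does not show that the classes share their levels. Of 20 general medium spiny neuron markers 0 passed, with a median log2 change of -0.39, as did 0 of 32 genes of cyclic AMP and DARPP-32 signalling (-0.22), 0 of 25 glutamate receptor genes (-0.15), 0 of 14 GABA receptor genes (-0.21), 0 of 43 potassium channel genes (-0.14), 0 of 17 RGS genes (-0.11) and 0 of 67 axon guidance and adhesion genes (-0.16). All 7 of these medians were above 0 in the 14 libraries with the larger mitochondrial share, so no direction is given for the lists. At an unadjusted p under 0.05, 2 of the 67 adhesion genes were higher and 6 lower, and 2 of the 32 cyclic AMP genes were lower. Of 28 lists, 22 held no gene that passed. Markers of other cell types did not pass either: 0 of 14 for astrocytes, 0 of 16 for oligodendrocytes, 0 of 15 for microglia and vessels, 0 of 21 for interneurons and 0 of 12 for excitatory neurons. Summed CPM of the oligodendrocyte markers ran from 570 to 687 in D1_SS and from 569 to 1762 in D2_SS, and of the astrocyte markers from 637 to 913 and from 696 to 1590. No list had a marker at 0 in all 19 libraries, and at the median 5 of 16 oligodendrocyte markers in D1_SS and 6 of 16 in D2_SS exceeded 2 times the background.

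Drd1, Tac1, Pdyn and Penk were lowest of their group in D1_SS 8, 9 and 10, which held little mitochondrial RNA. D1_SS 8, 9 and 10 held 9.63, 12.9 and 58.3 CPM of Tac1, against 102 to 271 in the other 7 D1_SS libraries. D2_SS 8 and 9 held 21.7 and 36.2, against 25.4 to 71.3 in the other 7 D2_SS libraries. For Drd1 the 3 D1_SS libraries held 17.5 to 76.9 CPM and the other 7 held 107 to 229. Genes over 100 kb took 54.8% to 59.0% of all counts in the same 5 libraries and 43.1% to 51.9% in the other 14. Drd2 went the other way in D2_SS, at 1232 and 2177 CPM in libraries 8 and 9 and 265 to 834 in the rest. In these 5 libraries the background share also parted the classes, at 58.2% to 61.1% in D1_SS and 5.32% and 34.5% in D2_SS, so class and background share cannot be told apart within them.

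**Figure D3:**
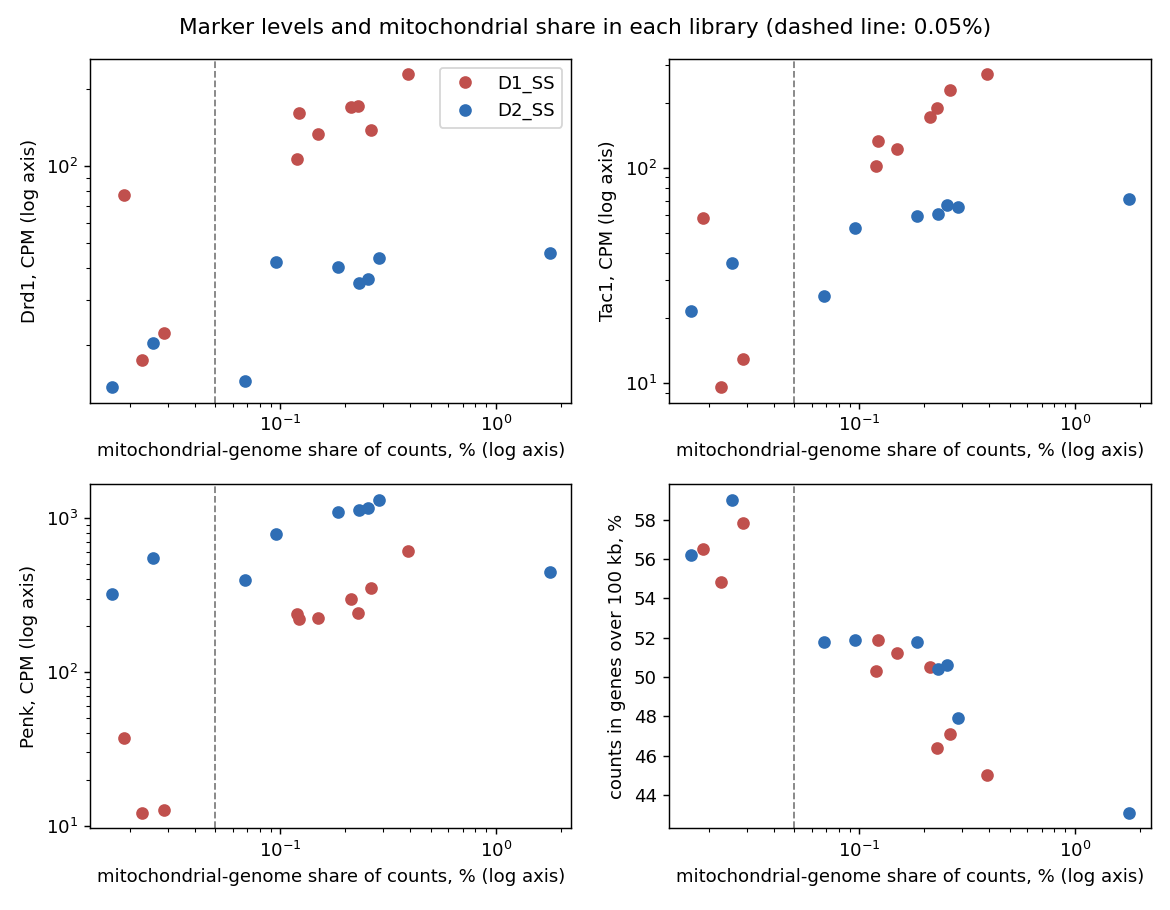
Each of the 19 libraries by its mitochondrial-genome share of counts (horizontal, log axis, dashed line at 0.05%) against CPM of Drd1, Tac1 and Penk (log axes) and the percentage of counts in genes over 100 kb, with D1_SS in red and D2_SS in blue. Left of the dashed line 3 D1_SS libraries hold 9.63 to 58.3 CPM of Tac1 and 12.2 to 37.3 of Penk, and all 5 libraries have over 54% of counts in long genes.

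In the 14 libraries with a mitochondrial share of 0.05% or more, 7 in each group, the difference between the classes took in more genes. With edgeR, 59 of 33955 genes (0.174%) passed. In D1 nuclei 30 were higher (0.0884%) and 29 lower (0.0854%), and the 59 included all 21 of the fit on 19 libraries. Of the 59, 10 were Drd1, Drd2 or genes within 250000 bases of them, and 49 lay elsewhere. CPM did not overlap between the groups for 45 of the 59, against 173 (0.509%) of all genes. The background share was 28.6% to 51.2% in these D1_SS libraries and 40.3% to 61.2% in these D2_SS libraries. With the background share as a covariate 29 genes passed, 12 higher and 17 lower, 26 of them among the 59. At an unadjusted p under 0.05 there were 6210 genes (18.3%) without and 3291 with that covariate. The choice of the 14 was made after seeing the data.

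All 6 markers passed in these 14 libraries, which leave out D1_SS 8, 9 and 10, the lowest D1_SS libraries for Drd1, Tac1, Pdyn and Penk. As the 14 were chosen with those values known, the calls of these 4 genes are no independent support for a difference between the classes. Drd1 had 107, 162 and 229 CPM in D1_SS and 14.4, 40.5 and 45.8 in D2_SS, a log2 change of 2.13 (SE 0.23, adjusted p = 8.4e-05). Tac1 had 102, 172 and 271 CPM against 25.4, 60.7 and 71.3 (1.62, SE 0.24, adjusted p = 0.0027), and Pdyn 97.1, 108 and 209 against 15.9, 25.5 and 44.3 (2.26, SE 0.24, adjusted p = 6.0e-05). None of these 3 overlapped. Penk had 220, 242 and 612 CPM in D1_SS and 398, 1095 and 1313 in D2_SS, with 1 D1_SS library inside the D2_SS range (-1.49, SE 0.28, adjusted p = 0.028). With the background covariate Drd1 (adjusted p = 0.0012) and Pdyn (adjusted p = 4.8e-04) passed, whereas Tac1 (adjusted p = 0.058) and Penk (adjusted p = 0.26) did not.

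On the D1 side, 7 of 9 D1 markers passed. To Drd1, Tac1, Pdyn and Sfxn1 were added Slc35d3, at 18.0 to 41.3 CPM against 3.26 to 12.4 (log2 change 1.93, adjusted p = 6.0e-04), Chrm4, at 22.6 to 48.3 against 4.40 to 15.8 (1.57, adjusted p = 0.0035), and Isl1, at 15.7 to 26.8 against 6.40 to 17.4 (1.18, adjusted p = 0.016). With the background covariate Slc35d3 passed (adjusted p = 0.015) and Chrm4 (0.064) and Isl1 (0.25) did not. Among genes outside the marker list, Sstr4, a somatostatin receptor, was low but did not overlap, at 3.77, 5.62 and 8.64 CPM against 1.13, 1.77 and 2.06 (1.86, adjusted p = 1.7e-04). Asic4, of the acid-sensing channel family, had 28.7, 39.1 and 53.5 CPM against 17.8, 20.1 and 21.2 (1.03, adjusted p = 2.2e-04). Both kept their call with the covariate, at an adjusted p of 0.013. D1_SS 8, 9 and 10, which the 14 leave out, were also lowest of D1_SS for Slc35d3 (2.85 to 9.82 CPM), Chrm4 (4.06 to 9.95) and Isl1 (11.3 to 12.6). The same held for Sstr4 (1.99 to 2.55) and Asic4 (21.8 to 24.5). The calls of these genes in the 14 libraries are therefore no independent support either.

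The adhesion gene Cntnap3, the alpha-2C adrenergic receptor gene Adra2c and the forkhead factor gene Foxp2 were also higher in D1 nuclei. Cntnap3 had 116 to 155 CPM in D1_SS and 71.8 to 93.7 in D2_SS (0.66, adjusted p = 0.0012; 0.023 with the covariate). Adra2c had 11.2 to 25.8 CPM against 3.93 to 9.80 (1.19, adjusted p = 0.011) and Foxp2 618 to 726 against 404 to 510 (0.58, adjusted p = 0.012), and neither passed with the covariate. Ccdc88c, a regulator of Wnt and G protein signalling, was at 99.8 to 149 against 60.2 to 79.7 (0.75, adjusted p = 0.0029), and Gnb4, a G protein beta subunit, at 46.6 to 59.4 against 30.6 to 39.7 (0.59, adjusted p = 0.0066). These 2 missed the threshold with the covariate as well, at adjusted p of 0.085 and 0.081. Adra2c (2.51 to 4.66 CPM) and Gnb4 (38.2 to 42.9) were also lowest of D1_SS in the left-out libraries D1_SS 8, 9 and 10. Foxp2 was lowest of D1_SS in D1_SS 8 and 9 (346 and 474 CPM). In D2_SS 8 and 9, also left out, Foxp2 (531 and 717) and Ccdc88c (93.4 and 87.0) were highest of D2_SS. Over the 19 libraries Foxp2 overlapped and changed by 0.14 (adjusted p = 0.9996). The calls of Adra2c, Gnb4, Foxp2 and Ccdc88c are no independent support either.

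On the D2 side, 5 of 8 D2 markers passed, Gpr6 and Penk beside Drd2, Adora2a and P2ry1. Gpr6, a receptor that raises cyclic AMP without a known ligand, had 9.86, 12.9 and 25.9 CPM in D1_SS and 14.8, 65.6 and 75.1 in D2_SS (-1.73, adjusted p = 0.017; 0.26 with the covariate). Adk, adenosine kinase, which clears adenosine by turning it into AMP, had 141, 159 and 201 CPM against 216, 247 and 291, without overlap (-0.52, adjusted p = 0.0061). Prkd1, protein kinase D1, had 123 to 151 against 155 to 228 (-0.52, adjusted p = 0.0065). Unc5d, a netrin receptor gene, had 263 to 352 against 361 to 524 (-0.54, adjusted p = 0.017). Adk, Prkd1 and Unc5d kept their call with the covariate, at adjusted p of 0.042, 0.042 and 0.035. The calcitonin receptor Calcr (-0.76, adjusted p = 0.0045) and the serotonin 2A receptor Htr2a (-0.48, adjusted p = 0.027) were lower in D1 nuclei too, but not with the covariate, at 0.081 and 0.22. The left-out libraries D1_SS 8, 9 and 10 were highest of D1_SS for Adk (227 to 240 CPM), Prkd1 (167 to 204), Calcr (31.3 to 35.5) and Htr2a (42.8 to 58.2). For Unc5d D1_SS 8 and 9 were highest of D1_SS, at 465 and 407 CPM, inside the D2_SS range. Its adjusted p in the 19 libraries was 0.19. The calls of these genes and of Unc5d in the 14 libraries are no independent support either. Nt5e (-0.54, adjusted p = 0.014) and Oprd1 (-0.71, adjusted p = 0.0051) were close to their values in 19 libraries. With the covariate Nt5e kept its call (adjusted p = 0.021) and Oprd1 lost it (-0.68, adjusted p = 0.063).

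General medium spiny neuron markers changed side between the fits. In the 14 libraries 17 of 20 had a log2 change above 0 (median 0.19, against 0.01 over all genes), where 1 of 20 did in the 19 libraries (median -0.39). The same was seen for the cyclic AMP genes, with 24 of 32 above 0 against 2 of 32, and for immediate early genes, with 16 of 17 against 7 of 17. The medians also turned for the glutamate receptor genes (0.14, with 20 of 25 above 0), GABA receptor genes (0.09, 12 of 14), potassium channel genes (0.09, 28 of 43), RGS genes (0.13, 13 of 17) and adhesion genes (0.09, 45 of 67). Of the spiny neuron markers only Foxp2 passed, and no cyclic AMP or immediate early gene did. Astrocyte and oligodendrocyte medians were below 0 in both fits, at -0.54 and -0.37 in the 14 libraries, with 0 genes called.

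In the 5 libraries with little mitochondrial RNA, 3 against 2, 0 of 37285 genes passed with edgeR, and 6748 had an unadjusted p under 0.05 (18.1%). Tac1 there had a log2 change of -0.61 (SE 0.85), Drd1 0.69 and Pdyn 1.26, while Drd2 was at -5.59 and Penk at -4.93. The difference of the D1 minus D2 change between the 2 sets of libraries was itself tested in one edgeR fit, and 14576 genes passed (42.3%). For Penk this difference was 3.63 (SE 0.67, adjusted p = 0.0019), for Tac1 2.39 (SE 0.70, adjusted p = 0.012), for Drd1 1.58 (SE 0.64, adjusted p = 0.051) and for Sfxn1 0.77 (SE 0.30, adjusted p = 0.042). For Gm34557 it was -0.42 (SE 0.32, adjusted p = 0.29) and for Ndnf 0.17 (SE 0.33, adjusted p = 0.69). The split was made with the values of Penk, Tac1 and Drd1 known. Their p-values here are thus no independent support for a difference between the 2 sets. Since the background share parted the classes without overlap in the 5 libraries and overlapped in the 14, its part in these differences cannot be told apart from that of the mitochondrial share.

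D1 and D2 nuclei of mice given cocaine at some point offered libraries that the comparison above did not use. In the other 3 treatment pairs, fitted together with treatment in the model, 52 libraries (26 of each class) with at least 1000000 counts gave 30 genes of 38958 (0.0770%), 14 higher and 16 lower in D1 nuclei, with 1556 (3.99%) at an unadjusted p under 0.05. All 21 genes of the saline comparison had the same sign there, as had 59.7% of all genes tested in both, and 17 of the 21 passed again. The 4 that did not were Gm4894, Gm37035, A830012C17Rik and Nt5e. For 18 of the 21 the change was smaller than in saline mice: Drd2 was at -2.92 (SE 0.34) against -4.32, Adora2a at -1.72 (SE 0.28) against -2.54, and P2ry1 at -1.46 (SE 0.29) against -2.18. The exceptions were Sfxn1 at 1.81 against 1.67, Oprd1 at -0.87 against -0.71 and Gm37711 at -1.25 against -1.23. The 21 were picked by their saline values, and such a choice favours larger changes in the saline libraries. Whether these sizes differ between the treatments was not tested.

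Of the 59 genes of the 14 libraries, 58 had the same sign in the other 3 pairs and 24 passed there. The share of all genes of that fit with the same sign was not computed. All 21 genes of the 19 libraries are among the 59, and 17 of the 24 come from them. Among the rest of the 24 were Drd1 (1.77, SE 0.30, adjusted p = 8.4e-04), Sstr4 (1.71, SE 0.30, adjusted p = 0.0012), Slc35d3 (1.53, SE 0.31, adjusted p = 0.014), Tac1 (1.33, SE 0.28, adjusted p = 0.018), Cntnap3 (0.62, SE 0.12, adjusted p = 0.0087), Unc5d (-0.67, SE 0.13, adjusted p = 0.0094) and Adk (-0.62, SE 0.13, adjusted p = 0.013). Penk (-1.28, SE 0.33, adjusted p = 0.20), Isl1 (0.78, adjusted p = 0.44), Chrm4 (1.07, adjusted p = 0.46) and Asic4 (0.41, adjusted p = 0.9999) did not pass. Sp9 (-0.999, adjusted p = 0.042) and Grik3 (-0.80, adjusted p = 0.0094) passed in these pairs and in neither saline fit without a covariate. With the background covariate in the 14 saline libraries Sp9 passed (-0.88, adjusted p = 0.040) and Grik3 did not (adjusted p = 0.49).

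**Figure D4:**
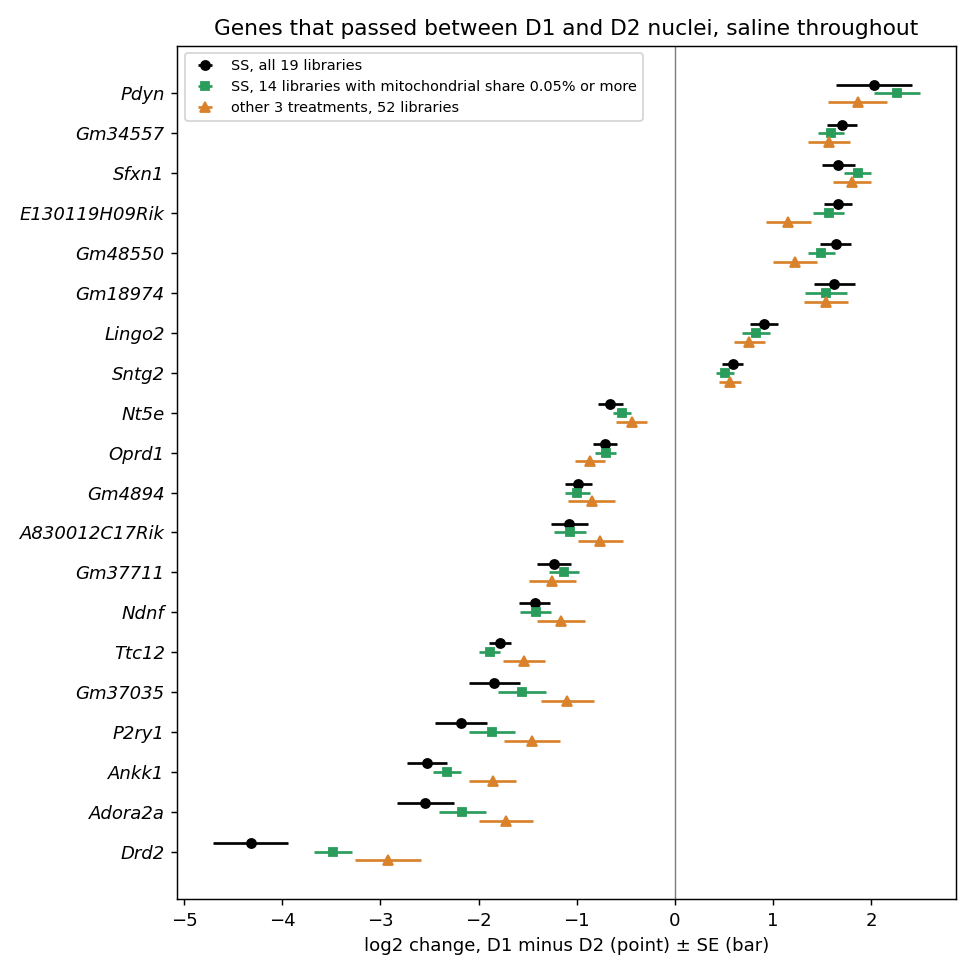
Log2 change, D1 minus D2, with SE bars, for the 20 genes with a name that passed in the 19 saline libraries: black circles for those 19, green squares for the 14 with a mitochondrial share of 0.05% or more, orange triangles for 52 libraries of the other 3 treatments. All 3 estimates lie on the same side of 0 for each gene, from Drd2 (-4.32, -3.49 and -2.92) to Pdyn (2.03, 2.26 and 1.86).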

How the data were processed

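The authors deposited raw counts per gene and FPKM for 55401 gene identifiers in 75 libraries of sorted nuclei; per the submitters' processing notes the counter was featureCounts, DESeq2 was used and the build was mm10. Per the labels, libraries were made with a stranded low-input total RNA kit. FPKM, as deposited, served only to read the gene lengths the authors used, which equalled the full gene span of GENCODE M21 for 54271 of 54271 identifiers compared; symbols and coordinates come from M21 (55141 matched). Counts therefore include introns.

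Tests on counts used the quasi-likelihood method of edgeR 4.0.16 (R 4.3.3) with TMM scaling and filterByExpr, D1_SS minus D2_SS on the 19 libraries alone, with Benjamini-Hochberg adjustment over all genes and a threshold of 0.05. SE comes from the change and the test statistic. DESeq2 1.42.0 and limma 3.58.1 were alternatives. The script was tested on simulated counts with this comparison's 34487 genes: 57% of 100 genes changed 1 log2 unit and 94% of 100 changed 2 units were recovered, with 8 false calls. Named genes are the 6 markers, genes within 250000 bases of the receptor genes, the 20 largest rises and falls and list members that passed, applied likewise to the 14 libraries, from which the text names a part picked after their values were seen; further genes named were also picked after seeing values. The members and gene lists were chosen with earlier results of these data known.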

Additional observations from a re-analysis of the deposited data

Results flagged for a closer look

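Single libraries lay far from the rest of their group for several genes; chance alone flags about 1 in 20 of the 94 sets of values screened, and 12 were. D2_SS 9 gave 5 of the gene values: Drd2 at 2177 CPM (next 1232), Sntg2 at 45.0 (next 87.3), Cntnap3 at 28.9 (next 62.1), Foxp2 at 717 (next 531) and Ncam1 at 525 (next 408). The same library had the lowest background share, 5.32% (next 34.5%). D2_SS 4, which had the highest mitochondrial share at 1.77%, was highest of its group for the D1-side genes Sfxn1 (43.1 CPM, next 32.0) and Slc35d3 (12.4 CPM, next 6.68). D1_SS 5 was highest of the D1 group for Adora2a (45.1 CPM, next 29.6) and Slc35d3 (41.3 CPM, next 23.2). D1_SS 8 stood apart for Grik3 at 283 CPM (next 191), and D2_SS 8 for Asic4 at 25.1 CPM (next 21.2).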

How the results depend on the processing

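The count of 21 genes was 38 with DESeq2, 77 with limma voom, 10 with all 75 libraries in the fit, 36 with the background share as a covariate and 1 (Ttc12) in the libraries with a background share below the median; among settings chosen after seeing the data it was 59 and 0 in the libraries above and below a mitochondrial share of 0.05%. Leaving out 1 library gave 16 to 25. It stayed within 1.5 times of 21 under the other settings, 17 to 29. The replicate block (numbers 1 to 9 as pairs) gave 11 genes. Same-numbered libraries correlated from -0.60 to 0.58, which cannot settle whether the numbers mark pairs or a shared preparation. The libraries with little mitochondrial RNA had the last numbers of each group, D1_SS 8, 9 and 10 and D2_SS 8 and 9.

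Changes of the 21 genes kept their sign under these settings, but their size moved. With background subtracted all 21 were larger, among them Ndnf (-3.83 against -1.43), Lingo2 (2.14 against 0.91), Sntg2 (1.54 against 0.59), Gm48550 (3.01 against 1.64), Gm18974 (2.73 against 1.62), E130119H09Rik (2.68 against 1.66), Gm34557 (2.62 against 1.70), Sfxn1 (2.45 against 1.67), Gm4894 (-1.91 against -0.98), Gm37035 (-2.67 against -1.84), Ttc12 (-2.63 against -1.78) and Ankk1 (-3.26 against -2.52). Over all settings Lingo2 ran from 0.57 to 2.14. Turned by a setting were Tac1 (-0.61), Asic4 (-0.35), Adra2c (-2.18), Foxp2 (-0.83), Gnb4 (-0.18), Calcr (0.0505) and Eya1 (0.94) in the 5 libraries with little mitochondrial RNA, and Foxp2 (-0.0386) and Eya1 (0.20) at low background. Eya1, near 0, was also at 0.0526 without a filter, 0.00335 with the block, 0.0193 with the mitochondrial class as a covariate and between -0.0979 and 0.0398 with 1 library left out. Ncam1 was at 0.0475 with limma, 0.0564 with background subtracted, 0.0580 at high background, 0.0834 in the 14 libraries and between -0.274 and 0.00992 with 1 library left out. The causes were not tested. Genes near background are limited by depth: D2_SS 4, the shallowest library, had 5331227 counts.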
